A study of Homo sapiens with 3 samples.

Results

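The pentose phosphate pathway branches off from glycolysis at glucose 6-phosphate. Its oxidative branch yields NADPH and ribulose 5-phosphate, and its non-oxidative branch interconverts pentose phosphates with the fructose 6-phosphate and glyceraldehyde 3-phosphate of glycolysis. Growing cells are known to draw on both, since NADPH drives lipid synthesis and antioxidant defence and ribose 5-phosphate is the sugar of nucleotides.

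The transcripts of 9 enzymes of this pathway were read in MCF10A, a human breast epithelial line that is immortalized but forms no tumours. The members were taken by symbol and were all found among the 62754 genes measured. H6PD, PGLS and PGD represent the oxidative branch, RPIA, RPE, TKT, TKTL1 and TALDO1 the non-oxidative branch, and RBKS the entry of free ribose. All samples belong to 1 group of 3 replicates, treated here as 1 batch. The cells carried the empty vector of a retroviral doxycycline-inducible system, were selected with puromycin, and received neither an inserted gene nor doxycycline. The labels do not say whether the replicates were separate cultures, so the spread between them may be technical. As there is no second condition, no gene was compared between groups, and an exact sign-flip permutation over 3 replicates could not give a p below 0.25.

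Levels are given in TPM, a scale on which the read count of each gene is divided by a transcript length and brought to a common total. If the smallest step in the values is 1 read, replicates 1, 2 and 3 rest on 15273329, 15446347 and 11166546 reads. Protein-coding genes held 91.5%, 89.8% and 79.6% of TPM in replicates 1, 2 and 3. The short RNAs RN7SL1 and RMRP held 5.44%, 6.32% and 17.1%, so that replicate 3 stands apart. All 6 markers of basal mammary epithelium were present, with means from 49.8 TPM for TP63 to 6612 TPM for KRT5. Markers of hormone-receptor luminal cells (2 genes) and leukocytes (3 genes) were all below 1 TPM, while 2 of 4 stromal markers and 1 of 3 endothelial markers were above it, the highest being DCN at 9.05 TPM.

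Before the levels, it has to be seen which reads can be told apart. RPEL1 is an intronless copy of RPE, and over 684 coding bases both were identical at 97.5%, with 17 mismatches and a longest identical run of 139 bases. The start of both coding sequences is shown because it is the kind of stretch on which a short read has few bases to separate the genes. Both run 5′ to 3′ from coding base 1 to 120 of the canonical transcripts in GENCODE release 44, with the 5 mismatched bases in capitals.
RPE: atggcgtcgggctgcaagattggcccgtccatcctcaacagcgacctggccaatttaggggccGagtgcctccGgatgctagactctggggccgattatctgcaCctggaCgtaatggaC
RPEL1: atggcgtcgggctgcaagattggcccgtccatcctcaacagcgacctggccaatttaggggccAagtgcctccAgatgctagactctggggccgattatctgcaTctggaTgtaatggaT
TKTL1 differs more from TKT, with 71.4% identity over 1690 aligned coding bases and no identical run above 20 bases. Their most alike stretch of 120 bases without a gap, coding bases 1012 to 1131 of TKT and 934 to 1053 of TKTL1, still holds 22 mismatches, again in capitals.
TKT: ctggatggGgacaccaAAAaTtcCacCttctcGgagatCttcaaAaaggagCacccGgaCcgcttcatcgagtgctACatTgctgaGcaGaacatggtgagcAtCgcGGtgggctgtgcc
TKTL1: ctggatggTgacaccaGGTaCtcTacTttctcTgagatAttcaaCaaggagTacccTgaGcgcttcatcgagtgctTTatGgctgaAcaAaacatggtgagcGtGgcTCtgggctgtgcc
Of the 50-base words in the canonical transcripts, 12.7% for RPE were also found in another gene, all of them in RPEL1, 5.81% for PGD, all in the processed pseudogene PGDP1, and 0.473% for H6PD. None was shared for PGLS, RPIA, TKT, TKTL1, TALDO1 or RBKS.

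A total of 8 of the 9 enzymes reached a mean of 1 TPM, the cutoff by which the study called an enzyme expressed, where the background was 56.7% of 20046 protein-coding genes. The exception was TKTL1. The same 8 members passed cutoffs of 0.5 TPM and 2 TPM, where the background was 59.6% and 53.4%, and each of them passed 1 TPM in every replicate. The median over the 9 members was 59.3 TPM, beside 24.9 TPM over the 11360 protein-coding genes that reached 1 TPM. In RNA from bulk culture, fewer cells that express a gene and less RNA per cell cannot be told apart.

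**Figure D1:**
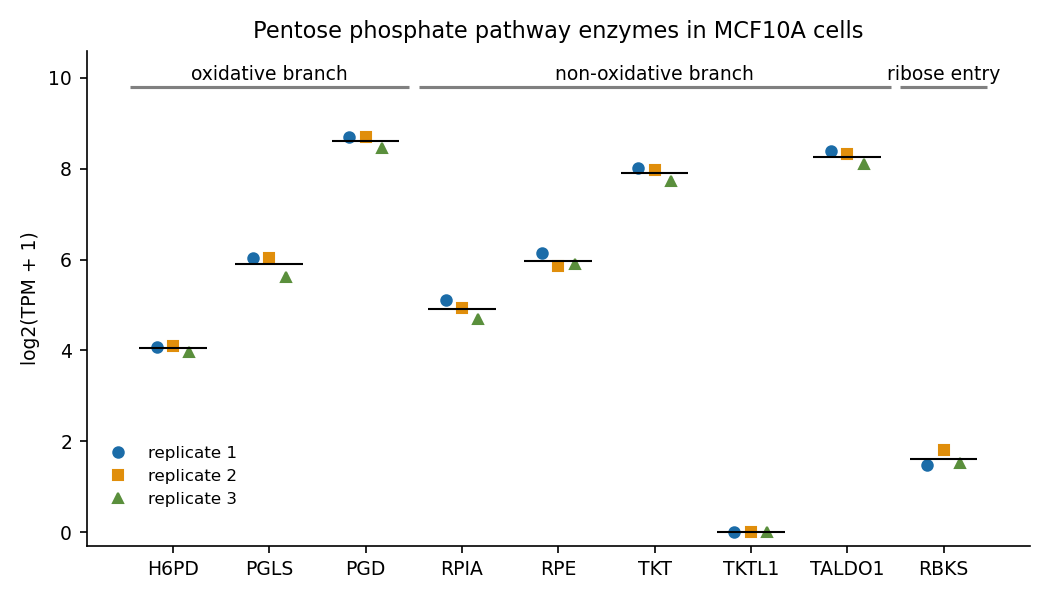
Level of each pentose phosphate pathway enzyme as log2(TPM + 1), with 1 point per replicate and a line at the mean of the 3 replicates. PGD, TALDO1 and TKT lie highest, RBKS is low, and TKTL1 is at 0 in all 3 replicates.

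In the oxidative branch, PGD stood far above the other members. PGD (ENSG00000142657, chromosome 1 of hg38, 10398592 to 10420511) encodes 6-phosphogluconate dehydrogenase, which releases NADPH and ribulose 5-phosphate. It was measured at 416, 414 and 353 TPM in replicates 1, 2 and 3, a mean of 394 ± 35.7 TPM (SD, n = 3), from 4947, 5055 and 3571 reads. Of the protein-coding genes at or above 1 TPM, 97.3% lay below it.
PGLS (ENSG00000130313, chromosome 19, 17511636 to 17521288), the lactonase one step before PGD, was measured at 64.9, 65.0 and 48.2 TPM, a mean of 59.3 ± 9.63 TPM (SD, n = 3). PGD was 6.70 ± 0.537 times as high as PGLS (SD, n = 3), and higher in every replicate. A stretch of 23.9% of the canonical PGLS transcript lies opposite the long non-coding RNA PGLS-DT, which had 46, 72 and 28 reads against 547, 563 and 346 for PGLS.
H6PD (ENSG00000049239, chromosome 1, 9234774 to 9271337) encodes a bifunctional dehydrogenase and lactonase of the endoplasmic reticulum, where it supplies a separate pool of NADPH. It was measured at 15.8, 16.2 and 14.5 TPM, a mean of 15.5 ± 0.877 TPM (SD, n = 3), and was the lowest of these 3 genes in every replicate. PGD was 25.4 ± 1.05 times as high as H6PD (SD, n = 3). Of the summed TPM of the 3 oxidative genes, PGD held 84.1%, PGLS 12.6% and H6PD 3.32% on average.

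In the non-oxidative branch, the carbon-transfer enzymes TALDO1 and TKT were high, and the isomerase and epimerase of the branch were lower. TALDO1 (ENSG00000177156, chromosome 11, 747415 to 765012) encodes transaldolase, which moves a dihydroxyacetone unit between sugar phosphates. It was measured at 333, 319 and 273 TPM, a mean of 309 ± 31.7 TPM (SD, n = 3).
TKT (ENSG00000163931, chromosome 3, 53224712 to 53256052) encodes transketolase, the thiamine-dependent enzyme that moves a glycolaldehyde unit. It was measured at 260, 251 and 210 TPM, a mean of 240.3 ± 26.4 TPM (SD, n = 3). TKT nevertheless had the most reads of all members, with 9970, 9891 and 6864, against 2149, 2116 and 1496 for TALDO1. TALDO1 was 1.28 ± 0.0120 times as high as TKT in TPM (SD, n = 3), and higher in every replicate.
RPE (ENSG00000197713, chromosome 2, 210002565 to 210022260), the epimerase that forms xylulose 5-phosphate, was measured at 70.1, 57.1 and 59.1 TPM, a mean of 62.1 ± 7.0 TPM (SD, n = 3). RPIA (ENSG00000153574, chromosome 2, 88691673 to 88750929), the isomerase that forms ribose 5-phosphate, was measured at 33.6, 29.7 and 24.7 TPM, a mean of 29.3 ± 4.42 TPM (SD, n = 3). Both enzymes act on ribulose 5-phosphate, and RPE was 2.13 ± 0.237 times as high as RPIA (SD, n = 3), without overlap between the replicates.
A further 26.4% of the canonical RPE transcript lies opposite an exon of KANSL1L, which had 96, 111 and 84 reads where RPE had 1172, 981 and 841. Whether strand was used in counting is not stated, so reads of that stretch cannot be assigned with certainty.
The copy RPEL1 had 1, 0 and 0 reads in replicates 1, 2 and 3. Of the 6 annotated RPE pseudogenes, RPEP4 was the highest at 1.89, 4.91 and 3.71 TPM from 6, 16 and 10 reads, and the other 5 were below 1 TPM in every replicate, as were PGDP1, RPIAP1 and the intronless TKTL2. RPEP4 was thus the only one of 10 near copies of members with a mean of at least 1 TPM. It is identical to RPE at 91.4% of 602 aligned bases, with no identical run above 41 bases.

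TKTL1 (ENSG00000007350, chromosome X, 154295795 to 154330350), a relative of transketolase whose own catalytic activity is disputed, had 0 reads in each replicate. With a limit of 3 reads, this allows up to 0.223, 0.217 and 0.262 TPM in replicates 1, 2 and 3, a limit that covers counting error only. The same absence of reads was found for 26.2% of all protein-coding genes. None of the 2469 words of 50 bases in the canonical TKTL1 transcript was found in another gene, and only 59 bases lay opposite another gene's exon, the likewise unread TEX28.
RBKS (ENSG00000171174, chromosome 2, 27781379 to 27890681) encodes ribokinase, which phosphorylates free ribose, for instance from nucleoside breakdown. It was measured at 1.77, 2.50 and 1.87 TPM, a mean of 2.05 ± 0.394 TPM (SD, n = 3), from 20, 29 and 18 reads. The 95% exact Poisson intervals were 1.08 to 2.74, 1.67 to 3.59 and 1.11 to 2.96 TPM, so that all 3 overlapped. Of the protein-coding genes at or above 1 TPM, 5.97% lay below RBKS.

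In order of mean TPM the members were PGD, TALDO1, TKT, RPE, PGLS, RPIA, H6PD, RBKS and TKTL1. Of the 8 neighbouring pairs in this order, 7 were separated, that is, the mean difference of log2(TPM + 1) within replicates was above its SD and had 1 sign in every replicate. The exception was RPE and PGLS, which differed by 0.07 ± 0.24 (SD, n = 3) on this scale, with RPE higher in 2 of 3 replicates. The closest separated pairs were PGD over TALDO1, by 0.35 ± 0.03 (SD, n = 3), and TALDO1 over TKT, by 0.36 ± 0.01 (SD, n = 3). Since the order was taken from these same values, the count of separated pairs describes the order and does not test it. TKTL1 had no reads, so RBKS was above it wherever RBKS had any.

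The order at the top rests on the transcript length by which the reads were divided. The length behind the deposited values was that of the longest annotated transcript of each gene, counted with 1 base less per exon. For TKT this is a transcript of 6 exons with a retained intron, annotated without a protein (53225652 to 53235607), and it has 7280 bases where the canonical coding transcript of 14 exons has 2982. The longest transcript was also a retained-intron one for PGLS, with 1600 against 1003 bases, and one annotated for nonsense-mediated decay for RBKS, with 2142 against 1239 bases. For H6PD, PGD, RPIA and RPE the longest transcript was the canonical one, and for TALDO1 and TKTL1 both lengths differed by less than 3%. A longest transcript over 2 times as long as the canonical one, as in TKT, was found for 6.74% of the 11360 protein-coding genes at or above 1 TPM.
With the same reads divided by the canonical length and brought to the same total, TKT was measured at 513, 495 and 425 TPM, above PGD at 337, 335 and 292 TPM and TALDO1 at 277, 265 and 232 TPM in every replicate. The ratio of PGD to TKT, 1.64 ± 0.0392 (SD, n = 3) as deposited, was then 0.673 ± 0.0161 (SD, n = 3). The ratio of PGD to PGLS moved from 6.70 to 4.20 ± 0.337 (SD, n = 3). PGLS was then at a mean of 77.1 ± 11.6 TPM and RPE was at 50.6 ± 5.47 TPM (SD, n = 3 each), so that this pair was separated too, with PGLS the higher in every replicate. This setting was chosen after the data were seen. Which transcripts the reads came from cannot be read from gene totals, so both orders are given.

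**Figure D2:**
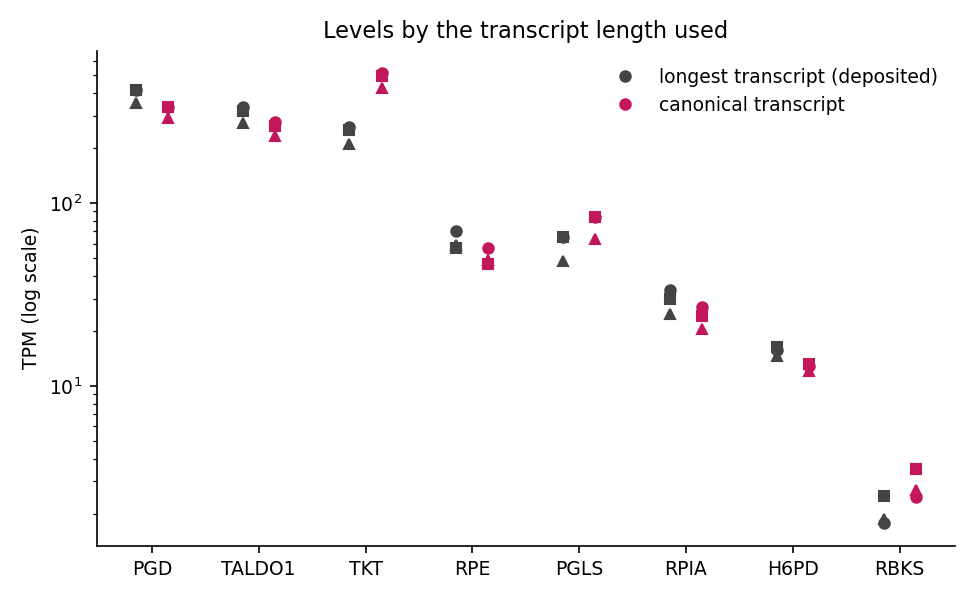
TPM on a log scale of the 8 members with reads, in grey as deposited (reads divided by the longest transcript) and in red with the canonical transcript length, where circles, squares and triangles stand for replicates 1, 2 and 3. TKT moves above PGD and TALDO1, and RPE and PGLS change places.

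To compare the branches, TPM were summed over their members within each replicate. The oxidative genes summed to 497, 495 and 416 TPM and the non-oxidative genes to 697, 657 and 567 TPM. The non-oxidative sum was higher in every replicate, at 1.40, 1.33 and 1.36 times the oxidative sum, a mean of 1.36 ± 0.0377 (SD, n = 3). The sums cover 3 and 5 members only, and other enzymes of the oxidative branch are not analysed here. The ratio thus compares the listed genes and does not say which whole branch was higher. It is a relative measure of transcripts, not of enzyme activity or flux. TALDO1 held 48.2% and TKT 37.5% of the non-oxidative sum on average, RPE 9.72%, RPIA 4.56% and TKTL1 nothing.
The ratio was 1.97 ± 0.0465 (SD, n = 3) with canonical lengths, where TKT alone held 59.0% of the non-oxidative sum. It turned to 0.584 ± 0.0294 (SD, n = 3) when the geometric mean of TPM + 1 per gene was taken in place of the sum, a summary in which TKTL1 at 0 counts as much as TKT. The direction thus differed between the sum and a geometric mean that includes TKTL1. By the levels of the other members this turn rests on TKTL1, though a geometric mean without it was not computed.

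**Figure D3:**
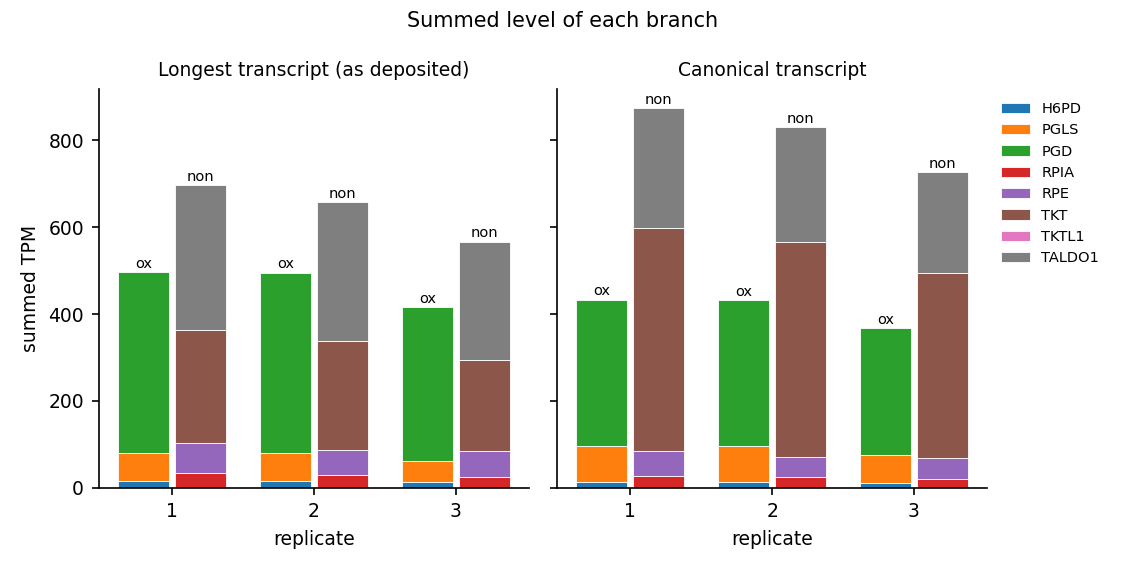
Summed TPM of the oxidative (ox) and non-oxidative (non) member genes in each replicate, stacked by gene, with the deposited values on the left and canonical transcript lengths on the right. Other enzymes of the oxidative branch are not included. PGD makes up most of the oxidative bar, and TKT and TALDO1 most of the non-oxidative bar, which is the taller in all 3 replicates on both scales.

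The median spread of the members between replicates was a little below that of all genes that reached 1 TPM, which were not matched for level. The median SD of log2(TPM + 1) over the 9 members was 0.16, beside 0.19 over all 15640 genes that reached 1 TPM. The coefficient of variation ran from 5.65% for H6PD to 19.2% for RBKS. Replicate 3 was the lowest for 6 of the 8 members with reads, where the background was 69.5% of genes at or above 1 TPM. The exceptions were RPE, lowest in replicate 2, and RBKS, lowest in replicate 1. With each replicate brought to an equal sum over protein-coding genes, replicate 3 was the lowest for 5 of 8, beside 43.5% of genes.
The log2 ratio of replicate 3 to replicate 1 was -0.24 for PGD, -0.31 for TKT and -0.29 for TALDO1, beside a median of -0.25 over the 8809 genes that reached 10 TPM on average. It was -0.43 for PGLS, -0.44 for RPIA and -0.12 for H6PD. With the equal protein-coding sum, the same ratios were -0.04 for PGD, -0.10 for TKT, -0.09 for TALDO1, -0.23 for PGLS, -0.24 for RPIA and 0.08 for H6PD. The median SD was then 0.055 over the 9 members, among them TKTL1 with none, and 0.086 over the 8 at or above 1 TPM, beside 0.14 over all genes at or above 1 TPM.
Reads were compared with equal TPM across the replicates by a chi-square test in each of 15802 genes with at least 15 reads, with Benjamini-Hochberg adjustment. The reads of 6 of the 8 members tested differed beyond counting error, all but H6PD and RBKS, and the background was 54.3% of genes. Background genes for this test were not matched for read number, and more reads let it call smaller differences. With protein-coding genes set equal, 2 members differed, RPE and TKT, where the background was 33.4%. Between replicates 1 and 2 alone, 1 member differed, RPE, at a log2 ratio of -0.30 of replicate 2 to replicate 1, where the background was 21.3%. The short RNAs RN7SL1 and RMRP held 5.44%, 6.32% and 17.1% of TPM in replicates 1, 2 and 3, which sets replicate 3 apart. RPE also differed between replicates 1 and 2, and RPE and TKT still differed after the rescaling. The part of the short RNAs in these differences was not tested beyond this rescaling.

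**Figure D4:**
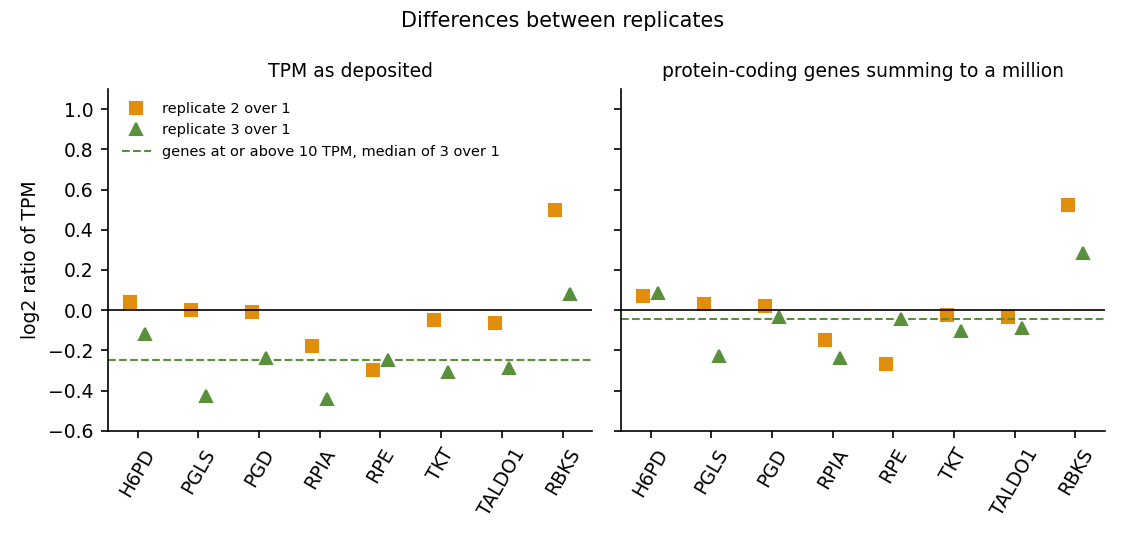
Log2 ratio of TPM in replicates 2 (squares) and 3 (triangles) to replicate 1 for the 8 members with reads, as deposited (left) and with an equal protein-coding sum (right), with the median of genes at or above 10 TPM for replicate 3 as a dashed line. On the left the triangles of PGD, RPE, TKT and TALDO1 lie near the dashed line and those of PGLS and RPIA below it, and on the right PGD, TKT and TALDO1 lie near 0 while RPE stays low in replicate 2.

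Genes that share a substrate, product or partner with the members were read in 6 lists of 36 genes, of which 30 reached 1 TPM on average. The 6 below it were PRPS1L1, HK3, FBP1, FBP2, HSD11B1 and ME3, with means from 0 to 0.141 TPM, and no gene of these lists lay on both sides of the cutoff between replicates.
Ribose 5-phosphate leaves the pathway through PRPP synthetase, the entry to nucleotide synthesis. PRPS2 was the highest of its list at 111, 104 and 95.4 TPM, a mean of 103 ± 7.75 TPM (SD, n = 3), and 4 of 5 genes of the list were at or above 1 TPM. PRPS2 was above RPIA, whose product it uses, in every replicate.
All 7 genes for the entry and exit of other sugars were at or above 1 TPM, from 2.25 TPM for SHPK, the kinase of sedoheptulose, to 81.2 ± 11.4 TPM (SD, n = 3) for DCXR, the xylulose reductase. Other genes annotated on its strand cover 75.4% of the canonical SHPK transcript, so that its level is uncertain.
At the hexose phosphate node, GPI, which competes with the oxidative branch for glucose 6-phosphate, was the highest at 283 ± 34.6 TPM (SD, n = 3). It stood at 0.716 ± 0.0269 times PGD (SD, n = 3), below it in every replicate. A gene without reads on the same strand covers 13.1% of the canonical GPI transcript. The fructose bisphosphatases FBP1 and FBP2, which would return carbon to glucose 6-phosphate, had 0, 1 and 1 reads and no reads.
At the triose phosphate node, GAPDH reached 5410 ± 707 TPM (SD, n = 3), which was 17.5 ± 0.868 times TALDO1 (SD, n = 3) as deposited. With canonical lengths this ratio was 22.9 ± 1.14 (SD, n = 3). ALDOA, singled out after its value was seen, was at 6.42 ± 1.69 TPM (SD, n = 3), but genes of its own strand cover 89.8% of its canonical transcript, and its level is likewise uncertain.
Of 3 partners of H6PD, G6PC3 was the highest at 51.2 ± 9.02 TPM (SD, n = 3), and at 81.6 ± 13.4 TPM (SD, n = 3) with the canonical length, 1567 in place of 3067 bases. HSD11B1, the steroid reductase that uses the NADPH made by H6PD, had 0, 0 and 2 reads.
Among 8 other sources of NADPH, 7 were at or above 1 TPM, and IDH1, the cytosolic isocitrate dehydrogenase, was the highest as deposited at 175, 153 and 159 TPM, a mean of 162 ± 11.2 TPM (SD, n = 3). With canonical lengths MTHFD1, a folate enzyme named after its values were seen, was above it in every replicate, at 239, 240 and 196 TPM against 149, 131 and 138 TPM for IDH1. The length used for MTHFD1 was 6787 bases where the canonical one is 3126. PGD was 2.44 ± 0.241 times as high as IDH1 (SD, n = 3) as deposited, and higher in every replicate.

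**Figure D5:**
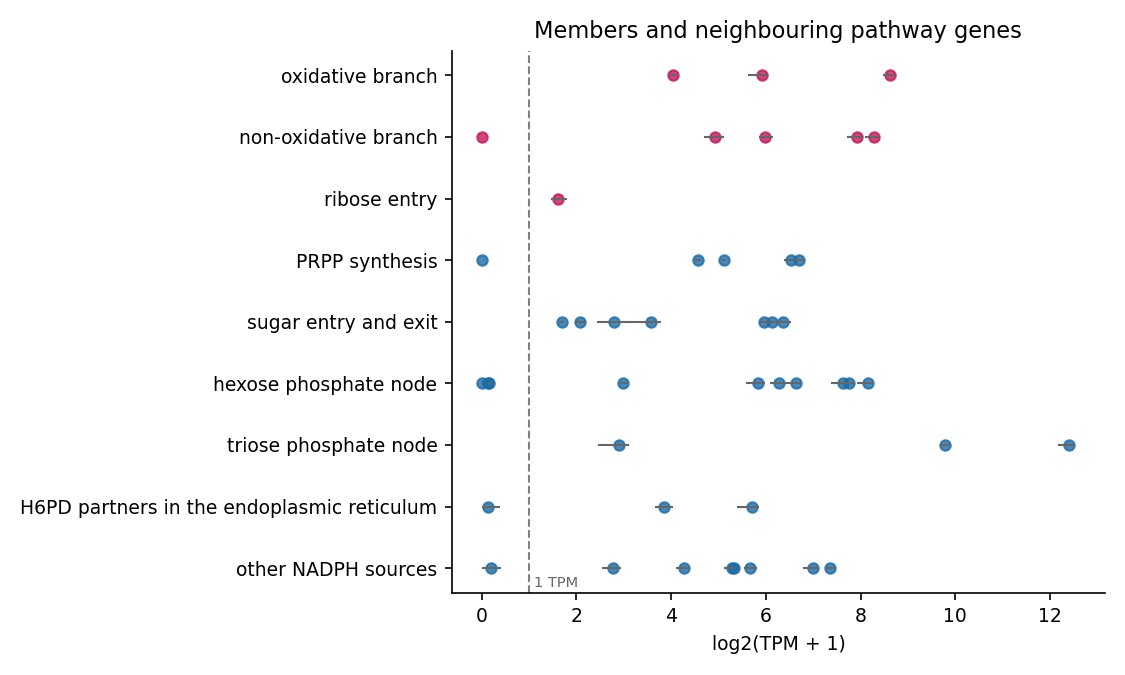
Mean TPM of each member (red) and of the genes of the 6 neighbouring lists (blue) as log2(TPM + 1), where horizontal lines span the 3 replicates and the dashed line marks 1 TPM. Of the 36 neighbouring genes, 30 lie to the right of the line, as do 8 of the 9 members.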

How the data were processed

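RNA of MCF10A cells was depleted of ribosomal RNA before sequencing. By the methods of the study, the authors ran Seq2science for mapping on hg38 and counting, and the submitters' processing notes name fastp, STAR and MultiQC. Tool versions, the gene annotation and the strand setting are not given in the sources used here. The deposited unit is TPM per gene and replicate, each replicate summing to 1000000, and all columns were used.

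GENCODE release 44 (hg38) gave positions and lengths for 62700 of the 62754 genes. The product of TPM and length, divided by its smallest value above 0, was whole within 0.01 for 100% of values in each replicate and was taken as reads. Intervals and floors cover counting error only. Other enzymes of the oxidative branch are not analysed here.

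Members and lists were chosen with earlier results of these data known. Named genes were all members and, of each other list, the highest gene and those below 1 TPM or on both sides of it, and, of the near copies, the highest and any at or above 1 TPM. Further genes are named as such or as overlapping partners. No gene was named for a like pattern, since 3 replicates of 1 condition hold none. The scripts were tested on simulated data. Python 3.11.15 was used with scipy 1.17.1, pandas 2.3.3, matplotlib 3.10.9 and numpy 2.4.6. The alternatives were other cutoffs and pseudocounts, other members of each branch, a geometric mean, an equal protein-coding sum, no read minimum and each replicate left out. Canonical lengths, and the equal protein-coding sum for the branch ratio, were added after the data were seen.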

Additional observations from a re-analysis of the deposited data

How the results depend on the processing

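No paired analysis was possible because the series holds a single condition. The count of 8 members and of 30 neighbouring genes at or above 1 TPM was the same at cutoffs of 0.5 and 2 TPM, by the median, in every replicate, on both other scales and without each replicate. The ratio of the branch sums, 1.36, was 1.41 without H6PD and 1.97 with canonical transcript lengths. It was 0.584 by the geometric mean with TKTL1 included, and between 1.35 and 1.38 with 1 replicate left out. The median spread, 0.16, was 0.055 with an equal protein-coding sum, and from 0.036 (without replicate 3) to 0.17 (without replicate 2) with 1 replicate left out. The 6 members that differed beyond counting error became 2 with protein-coding genes set equal, and from 1 (without replicate 3) to 6 (without replicate 2) with 1 replicate left out; the cause was not tested. The 7 separated pairs were 8 with canonical lengths and from 7 to 8 with 1 replicate left out. Depth limits RBKS, with at most 29 reads in a replicate.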
